A study of Rattus norvegicus with 15 samples.

Results

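Expression of 8 genes of the renin-angiotensin system was followed in 2 tissues of the rat, mesenteric artery and kidney cortex. The animals were Dahl salt-sensitive (SS) rats, an inbred strain that becomes hypertensive on a salty diet. The genes were taken by name from the table of expression values: Agt, Ace, Enpep, Agtr1a, Agtr1b, Agtr2, Mas1 and Atp6ap2, each on 1 of the 34357 rows that carry a gene identifier. Rats either lacked or kept 30.4 kb of noncoding sequence on chromosome 2 (60825801 to 60856216, rn7), orthologous to a human linkage region, and the study asked what losing that stretch does to gene expression. The groups were 4 deletion arteries (titled knockout), 4 wild-type arteries, 4 deletion kidneys and 3 wild-type kidneys, all of the SS strain, all titled male, and all sequenced from total RNA. The labels used here give no age, diet or founder line, and neither state that the libraries are from separate animals nor match arteries with kidneys. P-values therefore measure the spread between these libraries, which may be in part technical.

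In this hormone system, angiotensinogen is cut to a short peptide, and angiotensin-converting enzyme (ACE) turns that product into angiotensin II, which constricts arteries and makes the kidney retain salt through the AT1 receptor. Rodents carry a pair of AT1 genes, Agtr1a and Agtr1b, with nearly the same coding sequence. The AT2 receptor and the Mas receptor, which binds a shorter angiotensin peptide, mostly oppose AT1, while aminopeptidases trim angiotensin II further. Angiotensinogen reaches the blood from the liver, but adipocytes around vessels and the kidney's proximal tubule also make it.

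All levels are FPKM, fragments scaled to gene length and library size, so levels of different genes can be set side by side. Per library, FPKM totals were 285679 to 433477 for arteries and 376270 to 459847 for kidneys; depth in reads is unknown. Each tissue carried its own markers: 7 smooth muscle genes summed to 1327 to 2726 FPKM in artery and 37.2 to 77.3 FPKM in kidney, and 7 proximal tubule genes to 1.46 to 6.64 FPKM in artery and 2376 to 3831 FPKM in kidney. Of 15 libraries, 1 went against its title: kidney wild-type 3 had Xist, which is transcribed from an inactive X chromosome, at 81.1 FPKM, against 0.0989 to 1.30 FPKM in the others, and its Y-linked genes Eif2s3y, Kdm5d and Uty were listed at 0. Deletion effects of the members tested in kidney and their tissue differences are also given without it. Artery wild-type 1 carried 4 intestinal epithelium markers at a summed 28.7 FPKM, against 0.118 to 2.99 FPKM in the other arteries. The 4 erythrocyte markers summed to 2991 to 27455 FPKM in the deletion arteries and 3003 to 84988 FPKM in the wild-type arteries, highest in wild-type 4.

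On rn7, Agt lies on the minus strand of chromosome 19 (52529139 to 52549618), Ace on the plus strand of chromosome 10 (90910316 to 90930437) and Enpep on the minus strand of chromosome 2 (217781985 to 217851947). Agtr1a lies on the minus strand of chromosome 17 (34173446 to 34226892) and Agtr1b on the minus strand of chromosome 2 (102844969 to 102920232). Agtr2 is on the plus strand of chromosome X (112119876 to 112124060), Atp6ap2 on its minus strand (10183983 to 10210948), and Mas1 on the plus strand of chromosome 1 (47879956 to 47911500). The deleted interval shares a chromosome with Agtr1b and Enpep, which start 42.0 Mb and 157 Mb beyond its end. Agt overlaps the opposite-strand gene Cog2, which stood at 10.5 to 15.2 FPKM in artery and 11.7 to 18.1 FPKM in kidney, and it also overlaps Capn9, at no more than 0.073 FPKM. Ace overlaps LOC120095192 and LOC120095193, of which neither passed 0.8 FPKM. Use of strand in the counting is not given in the sources, so reads of such pairs may have been shared, and reads may also have been shared between Agtr1a and Agtr1b.

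The starts of 3 genes are printed because their levels carry the contrasts described further on: Agtr1a and Agtr1b, the AT1 pair whose levels lie far apart in both tissues, and Ace, the member with the highest artery excess that passed the test. The windows run from 250 bases before to 50 bases after the RefSeq start on GRCr8, an assembly other than that of the expression table. They are chr17:34435383-34435682 on the minus strand for Agtr1a, chr2:104849213-104849512 on the minus strand for Agtr1b and chr10:91409879-91410178 on the plus strand for Ace, each read in the direction of transcription. Capitals mark the TATA box letters TATAAA, the GC box letters GGGCGG and the CCAAT box letters CCAAT, found on either strand, with overlapping matches counted each.
Agtr1a: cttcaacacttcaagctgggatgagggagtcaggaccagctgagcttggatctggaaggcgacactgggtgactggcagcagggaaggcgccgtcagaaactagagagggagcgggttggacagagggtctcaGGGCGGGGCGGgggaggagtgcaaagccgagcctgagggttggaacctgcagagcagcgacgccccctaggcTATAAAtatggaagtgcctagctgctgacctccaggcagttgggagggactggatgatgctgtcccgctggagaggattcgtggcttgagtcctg
Agtr1b: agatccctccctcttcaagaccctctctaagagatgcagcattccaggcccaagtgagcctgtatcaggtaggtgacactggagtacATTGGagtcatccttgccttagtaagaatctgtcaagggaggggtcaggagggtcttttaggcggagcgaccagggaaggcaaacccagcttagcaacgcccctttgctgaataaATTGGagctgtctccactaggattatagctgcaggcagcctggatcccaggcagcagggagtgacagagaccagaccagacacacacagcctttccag
Ace: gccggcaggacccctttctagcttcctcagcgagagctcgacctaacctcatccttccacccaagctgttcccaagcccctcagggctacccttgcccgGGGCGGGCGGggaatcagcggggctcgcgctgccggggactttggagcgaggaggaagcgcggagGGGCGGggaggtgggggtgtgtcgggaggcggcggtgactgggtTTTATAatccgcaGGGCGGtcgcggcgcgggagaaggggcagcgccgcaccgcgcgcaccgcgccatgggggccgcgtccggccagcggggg
Agtr1a held 1 TATAAA and 2 GGGCGG, while Agtr1b held 2 CCAAT and neither of the other motifs. Ace held 1 TATAAA and 4 GGGCGG and was 72.3% G and C with 34 CG pairs, against medians of 51.7% and 7 over the 33469 windows of that length from RefSeq. Of those windows, 14.2% held TATAAA, 33.1% held GGGCGG and 37.5% held CCAAT. An alignment of the Agtr1a and Agtr1b windows matched in 197 of 349 columns (56.4%). Of the 8 genes, 7 had a window there. The matches describe letters in these windows and were not related to the levels.

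In mesenteric artery, angiotensinogen RNA was higher in every deletion library than in any wild-type library, but no member passed the test across all genes. Agt stood at 69.8, 104, 78.3 and 58.6 FPKM in the deletion arteries, against 52.2, 54.2, 49.2 and 40.5 FPKM in the wild-type arteries. The lowest deletion artery lay above the highest wild-type artery, so the groups did not overlap. Means were 77.7 ± 19.5 FPKM in deletion and 49.0 ± 6.04 FPKM in wild-type arteries (SD, n = 4 each), a difference of 0.64 on the log2(FPKM + 0.5) scale (SE 0.18, 95% interval 0.24 to 1.03). That is a ratio of 1.55 (1.18 to 2.05), with an unadjusted limma p of 0.00522 and a Benjamini-Hochberg adjusted p of 0.893 over the 16470 genes tested. An exact two-sided permutation test of the FPKM means gave p = 0.0286, the smallest that 70 arrangements allow, in 1 of 15 such tests over members and tissues.

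Of the 16470 genes, 0 were called at an adjusted p under 0.05 (percent called 0), 863 (5.24%) had an unadjusted p under 0.05, and 378 (2.3%) were higher in deletion with no overlap between groups. Among the 7 members tested, 0 were called, and Agt alone had an unadjusted p under 0.05. Their median log2 difference was -0.02, beside 0.04 over all genes tested. The Agt difference ranged from 0.49 without deletion artery 2 to 0.76 without deletion artery 4, and was 0.59 with median-of-ratios scaling.

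Adipocytes are a known source of angiotensinogen, and their markers were set beside it. Of the 8 adipocyte markers 7 had a higher mean in deletion arteries, their summed level was 1482 to 2840 FPKM in deletion and 1566 to 2273 FPKM in wild-type arteries, and none was listed at 0. Deletion artery 2 was highest for both Agt and the adipocyte sum. The lowest sum was that of deletion artery 4, with Agt at 58.6 FPKM. The correlation of Agt with the mean log2 level of these markers was r = 0.64 over the 8 libraries, which differ in genotype and in the makeup of the tissue. Over all 14 marker lists that r ran from -0.78 (mesangial) to 0.69 (podocyte and glomerulus). Other lists also leaned to 1 genotype: 7 of 7 smooth muscle markers had a higher mean in deletion arteries, as did 1 of 5 fibroblast, 0 of 5 macrophage, 0 of 5 T and NK cell, 0 of 4 mast cell, 0 of 4 erythrocyte and 0 of 7 proximal tubule markers. The summed level of each of the 14 lists overlapped between genotypes, and the part of any cell type, adipocytes included, in the Agt difference was not tested. With the adipocyte mean as a covariate the Agt difference was 0.57 (adjusted p = 0.940). In whole tissue, more cells of a type and more RNA per cell cannot be told apart.

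**Figure D1:**
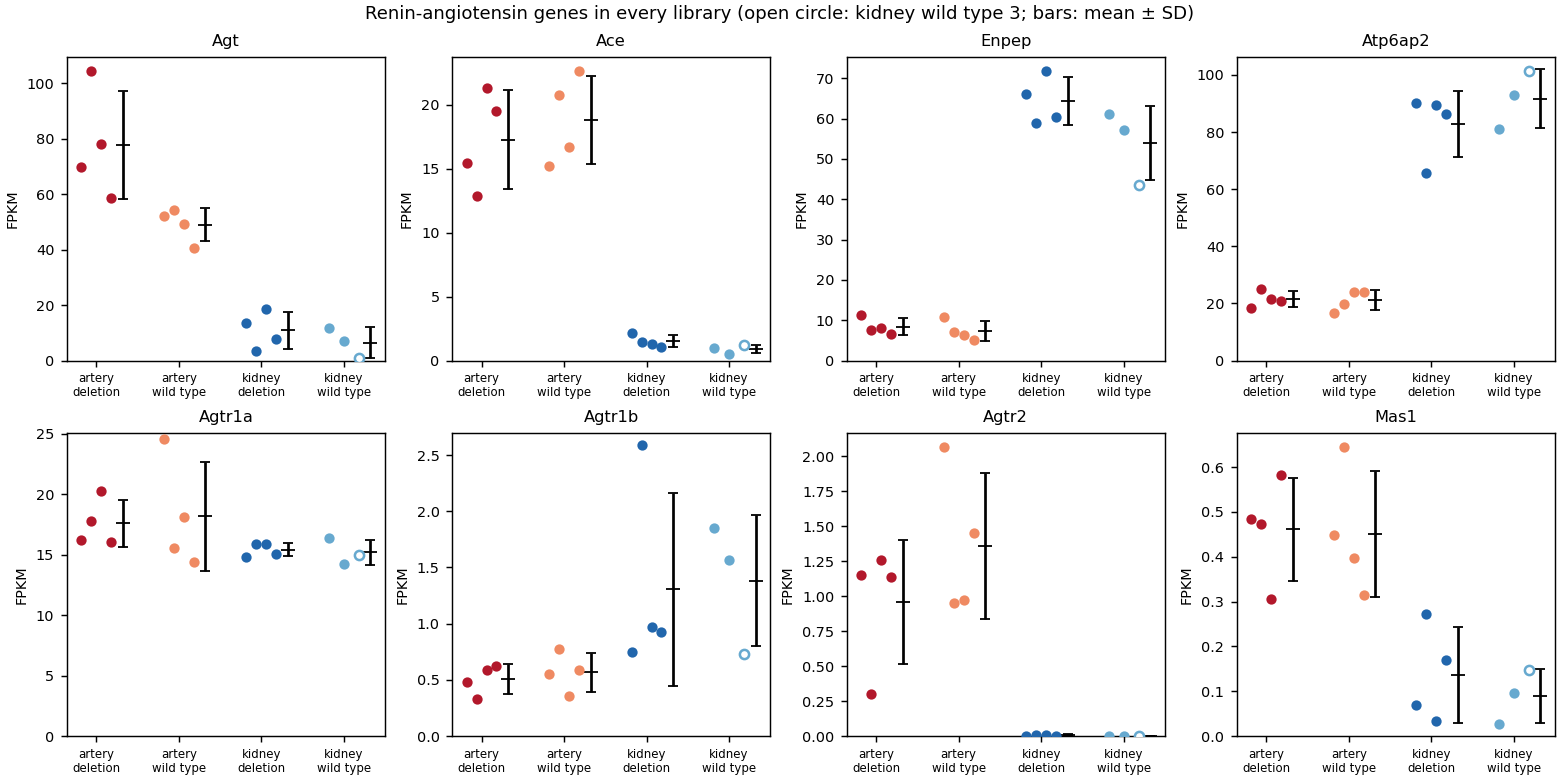
FPKM of each of the 8 genes (y axes, linear, 1 scale per gene) in every library of the 4 groups (x axes); points run by replicate number from left to right, bars give mean ± SD beside the points, and the open circle is kidney wild-type 3. Agt in the deletion arteries (58.6 to 104 FPKM) lies above the wild-type arteries (40.5 to 54.2 FPKM), and Agt and Ace are high in artery where Enpep and Atp6ap2 are high in kidney.

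The enzymes that make and trim angiotensin II overlapped between genotypes in artery. Ace, which forms angiotensin II, stood at 15.4, 12.9, 21.4 and 19.5 FPKM in deletion and 15.2, 20.8, 16.7 and 22.6 FPKM in wild-type arteries. The groups spanned nearly the same range, and the log2 difference was -0.13 (SE 0.18, adjusted p = 0.926), from -0.24 without deletion 3 to -0.00080 without deletion 2. Enpep, aminopeptidase A, which converts angiotensin II to angiotensin III, stood at 11.4, 7.59, 8.15 and 6.61 FPKM in deletion and 10.7, 7.03, 6.32 and 5.01 FPKM in wild-type arteries. Library 1 was the highest of each group, and the log2 difference was 0.22 (SE 0.23, adjusted p = 0.910), between 0.076 (wild-type 4 left out) and 0.42 (wild-type 1 left out).

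The receptors showed no called difference in artery. Agtr1a, the main vascular AT1 gene of rodents, stood at 16.2, 17.8, 20.3 and 16.1 FPKM in deletion and 24.6, 15.6, 18.2 and 14.4 FPKM in wild-type arteries. The highest and the lowest value were both wild-type, and the log2 difference was -0.02 (SE 0.16, 95% interval -0.38 to 0.34, adjusted p = 0.989). The highest, wild-type 1, was the library with raised intestinal epithelium markers. Without it the log2 difference was 0.13, and a link to those markers was not tested. Agtr1b stood at 0.485, 0.334, 0.591 and 0.624 FPKM in deletion and 0.553, 0.771, 0.356 and 0.585 FPKM in wild-type arteries. Both AT1 genes overlapped between genotypes, and for Agtr1b the log2 difference was -0.08 (SE 0.19, adjusted p = 0.961).

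Agtr2, which encodes the AT2 receptor, stood at 1.15, 0.302, 1.26 and 1.14 FPKM in deletion and 2.07, 0.954, 0.971 and 1.45 FPKM in wild-type arteries. Deletion artery 2 was far below the rest, and the log2 difference was -0.37 (SE 0.30, adjusted p = 0.898), or -0.11 without that library. Wild-type artery 1, the library with raised intestinal epithelium markers, was the highest. In FPKM the Agtr2 difference was -0.399 with all libraries and -0.163 without wild-type 1. Mas1, the Mas receptor gene, stood at 0.484, 0.472, 0.307 and 0.582 FPKM in deletion and 0.448, 0.646, 0.398 and 0.314 FPKM in wild-type arteries. Its mean lay under the filter of 0.5 FPKM, so it was not tested with the rest, and with no filter its log2 difference was 0.02 (adjusted p = 0.994). Atp6ap2, the prorenin receptor and an accessory protein of the vacuolar proton pump, stood at 18.4, 25.2, 21.6 and 20.9 FPKM in deletion and 16.8, 19.7, 24.1 and 23.9 FPKM in wild-type arteries. The genotypes overlapped, with a log2 difference of 0.03 (SE 0.14, adjusted p = 0.980).

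The wider pathway in artery had no called gene. Of 27 other genes of the pathway, 21 were tested, 0 were called and 3 had an unadjusted p under 0.05. That is 14.3% of those tested, beside 5.24% of all genes, and the median log2 difference was 0.04 for the list as over all genes. These 3 had the smallest p of the list and were all higher in deletion, each at an adjusted p of 0.893. Over all genes with an unadjusted limma p under 0.05, 613 were higher and 250 lower in deletion. With median-of-ratios scaling these counts were 351 and 406. Ctsd, the lysosomal protease cathepsin D, averaged 186 FPKM in deletion and 137 FPKM in wild-type arteries (log2 difference 0.44, SE 0.15). Dpp3, a dipeptidyl peptidase that degrades angiotensins, averaged 11.5 FPKM in deletion and 9.06 FPKM in wild-type arteries (log2 difference 0.32, SE 0.11). Dnpep, an aspartyl aminopeptidase, averaged 23.6 FPKM in deletion and 20.7 FPKM in wild-type arteries (log2 difference 0.18, SE 0.080).

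**Figure D2:**
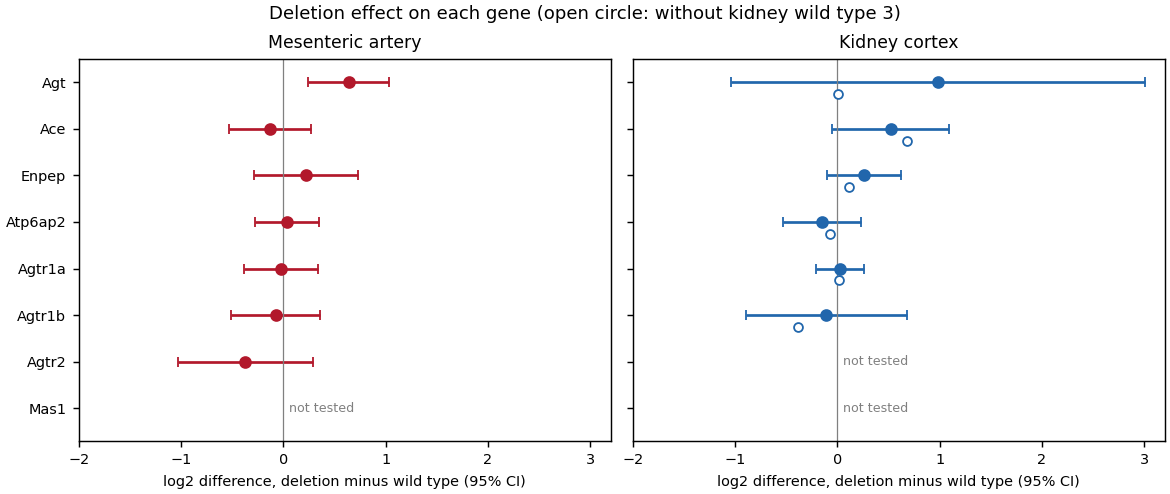
Log2 difference of FPKM + 0.5, deletion minus wild type, with the limma 95% interval (x axis) for each gene (y axis) in artery (left) and kidney (right); open circles give the kidney value without wild-type 3, and genes under the filter are marked as not tested. In artery only the Agt interval (0.24 to 1.03) lies clear of 0, before adjustment; in kidney Agt is 0.98 with all libraries and 0.01 without wild-type 3.

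In kidney cortex no member passed the test, and Agt varied more between libraries than any other member above the filter. Of 15444 genes tested 0 were called (percent called 0), 217 (1.41%) had an unadjusted p under 0.05, and 238 (1.54%) were higher in deletion with no overlap. Without wild-type 3, 0 of 15548 genes were called and 157 had an unadjusted p under 0.05. Of the 6 members tested 0 were called and 0 had an unadjusted p under 0.05. Their median log2 difference was 0.14, beside 0.04 over all genes.

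Agt stood at 13.5, 3.30, 18.7 and 7.86 FPKM in the deletion kidneys, against 11.7, 6.97 and 0.765 FPKM in the wild-type kidneys. The genotypes overlapped, and the lowest value belonged to wild-type 3, the library that goes against its title. Means were 10.8 ± 6.71 FPKM (SD, n = 4) in deletion and 6.48 ± 5.49 FPKM (SD, n = 3) in wild-type kidneys. The log2 difference was 0.98 (SE 0.86, 95% interval -1.04 to 3.01, adjusted p = 0.999), and an exact permutation test of the means gave p = 0.4 over 35 arrangements. Without wild-type 3 the wild-type mean was 9.34 FPKM and the log2 difference 0.01; without wild-type 1 the difference was 1.65.

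Ace in kidney stood at 2.17, 1.48, 1.27 and 1.10 FPKM in deletion and 0.950, 0.535 and 1.20 FPKM in wild-type kidneys. The groups overlapped, with deletion 4 below wild-type 3. The log2 difference was 0.52 (SE 0.26, 95% interval -0.05 to 1.10, limma adjusted p = 0.999), 0.68 without wild-type 3 and 0.32 without wild-type 2. The exact permutation test of the means gave p = 0.114. With limma array weights, which give unequal weight to libraries, Ace was called at 0.98 (adjusted p = 0.0448). In that setting 282 of 15444 genes were called instead of 0. There 4020 genes had an unadjusted limma p under 0.05, against 217 in the main fit.

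Enpep, an abundant brush border enzyme in the proximal tubule, stood at 66.0, 58.9, 71.9 and 60.3 FPKM in deletion and 61.1, 57.1 and 43.6 FPKM in wild-type kidneys. The lowest was wild-type 3, and the other wild-type kidneys lay close to the lower deletion kidneys. The log2 difference was 0.26 (SE 0.16, adjusted p = 0.999), or 0.12 without wild-type 3. Atp6ap2 stood at 90.1, 65.8, 89.4 and 86.2 FPKM in deletion and 81.0, 92.8 and 101 FPKM in wild-type kidneys. Deletion 2 was the lowest and wild-type 3 the highest, with a log2 difference of -0.15 (SE 0.17, adjusted p = 0.999). It was -0.08 without wild-type 3, and leaving out other libraries moved it between -0.24 (wild-type 1) and -0.04 (deletion 2).

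Among the receptors, Agtr1a was the steadiest member in kidney, at 14.8, 15.9, 15.9 and 15.1 FPKM in deletion and 16.4, 14.3 and 14.996 FPKM in wild-type kidneys. All values fell within a ratio of 1.15, and the log2 difference was 0.02 (SE 0.10, 95% interval -0.21 to 0.26, adjusted p = 0.999), or 0.01 without wild-type 3. Agtr1b stood at 0.745, 2.59, 0.971 and 0.924 FPKM in deletion and 1.85, 1.57 and 0.727 FPKM in wild-type kidneys. Deletion 2 was the highest and wild-type 3 the lowest. The log2 difference was -0.11 (SE 0.35, adjusted p = 0.999), -0.39 without wild-type 3 and -0.40 without deletion 2.

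Agtr2 was listed at 0 in 5 of 7 kidneys and at 0.0113 FPKM in deletion kidneys 2 and 3, and it was under the filter. Mas1 was also under the filter, at 0.0700, 0.272, 0.0347 and 0.170 FPKM in deletion and 0.0260, 0.0955 and 0.147 FPKM in wild-type kidneys. Values of both genes were too low in kidney to describe a difference, and with no filter the adjusted p was 0.999 for each.

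Of the 27 other pathway genes 21 were tested in kidney, 0 were called and 0 had an unadjusted p under 0.05, with a median log2 difference of 0.13. The smallest unadjusted limma p belonged to Arrb1, Nln and Prep, each at an adjusted p of 0.999. Arrb1, a beta-arrestin that binds the activated AT1 receptor, averaged 14.0 FPKM in deletion and 11.1 FPKM in wild-type kidneys (log2 difference 0.33, SE 0.18), or 0.28 without wild-type 3, and between 0.20 (wild-type 2) and 0.49 (wild-type 1) with another library left out. Nln, the peptidase neurolysin, averaged 10.1 FPKM in deletion and 8.44 FPKM in wild-type kidneys (log2 difference 0.25, SE 0.15), or 0.39 without wild-type 3 and 0.14 without wild-type 2. With limma array weights both were called, Arrb1 at 0.57 (adjusted p = 0.0483) and Nln at 0.53 (adjusted p = 0.0413). That setting called 282 of 15444 genes and put 4020 at an unadjusted limma p under 0.05. Prep, prolyl endopeptidase, averaged 21.6 FPKM in deletion and 14.7 FPKM in wild-type kidneys (log2 difference 0.64, SE 0.41), or 0.20 without wild-type 3 and 1.10 without wild-type 1.

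Deletion kidney 2 stood apart in several genes at once. It was the lowest deletion kidney for Agt, Enpep and Atp6ap2 and the highest of all kidneys for Agtr1b and Mas1. Its 7 proximal tubule markers summed to 2376 FPKM, against 3319 to 3831 FPKM in the other deletion kidneys and 3327 to 3486 FPKM in the wild-type kidneys. Its 5 podocyte and glomerulus markers summed to 202 FPKM, against 96.1 to 97.5 FPKM in the other deletion kidneys and 96.9 to 158 FPKM in the wild-type kidneys. None of either list was at 0 in kidney, and 2 of 7 tubule and 3 of 5 glomerular markers had a higher mean in deletion. With the tubule marker mean as a covariate the log2 difference was 1.18 for Agt, 0.51 for Ace, 0.28 for Enpep, -0.08 for Atp6ap2 and -0.28 for Agtr1b, and none was called.

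Within a tissue the members did not vary as 1 group. In kidney, Agt followed Enpep with r = 0.94 over 7 libraries on the log2 scale (0.81 without wild-type 3). With the other members tested the r of Agt was 0.08 for Ace, 0.22 for Agtr1a, -0.01 for Agtr1b and -0.10 for Atp6ap2. Without wild-type 3 these were 0.17, 0.10, -0.72 and 0.72. In artery the r of Agt over 8 libraries was -0.55 with Ace, 0.42 with Enpep, 0.20 with Agtr1a, -0.40 with Agtr1b, -0.68 with Agtr2 and 0.16 with Atp6ap2. The points share their library. Among the 14 marker lists in kidney, the r of Atp6ap2 ran from -0.94 (mesangial) to 0.91 (proximal tubule). That of Agtr1b ran from -0.84 (intestinal epithelium) to 0.90 (3 mesangial markers). Agtr1b was nearly as close to podocyte and glomerulus (0.86), endothelium (0.86), fibroblast (0.85) and adrenal cortex (0.84) markers. Deletion kidney 2 was the lowest kidney for Atp6ap2 and the proximal tubule mean, and the highest for Agtr1b and the mesangial mean. These r were picked out after their values were seen. The part of any marker list in the r between members was not tested.

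**Figure D3:**
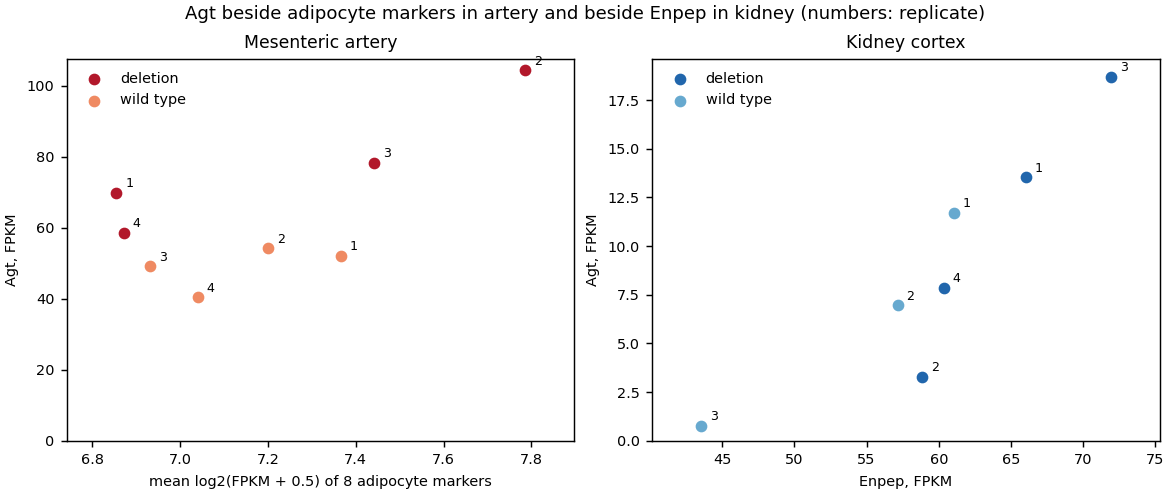
Agt in FPKM (y axes) against the mean log2 level of 8 adipocyte markers in artery (left) and against Enpep in FPKM in kidney (right); each point is 1 library, numbered by replicate. In artery, deletion 2 is highest on both axes. In kidney, wild-type 3 is lowest on both axes (0.765 FPKM of Agt, 43.6 FPKM of Enpep).

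Whether the deletion acted differently on the tissues was tested with an interaction term. Of 16856 genes 0 were called (percent called 0) and 740 (4.39%) had an unadjusted p under 0.05. Of the 7 members tested 0 were called and Ace had an unadjusted p under 0.05: its artery effect minus its kidney effect was -0.65 (log2, SE 0.30, limma adjusted p = 0.943), or -0.81 without kidney wild-type 3. For Agt the artery effect minus the kidney effect was -0.35 (SE 0.84, adjusted p = 0.971), and 0.63 without kidney wild-type 3. The difference between the tissues in the Agt effect was therefore not resolved in either direction.

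Between the tissues the members did differ, as most genes did: 12986 of 16856 genes (77%) were called, 41.8% higher and 35.2% lower in artery, with a median log2 difference of 0.11. Of the 7 members tested 6 were called, a share near that of all genes, 3 higher and 3 lower in artery, with a median of 0.20. Agtr2, 1 of those called, passed the filter only through artery. Angiotensinogen, ACE and the AT2 receptor were higher in artery, whereas aminopeptidase A, the prorenin receptor and Agtr1b were higher in kidney. The ranges of the tissues did not overlap for 6 of the 8 members, which was so for 50% of all genes tested. Mas1, under the filter, is among those 6 but not among the genes behind the 50%.

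Agt averaged 63.4 ± 20.3 FPKM in artery (SD, n = 8) and 8.98 ± 6.16 FPKM in kidney (SD, n = 7). The lowest artery (40.5 FPKM) lay above the highest kidney (18.7 FPKM), a log2 difference of 3.16 (SE 0.42, limma adjusted p = 4.74e-06), or 2.68 without kidney wild-type 3. Ace averaged 18.1 ± 3.49 FPKM in artery and 1.24 ± 0.504 FPKM in kidney, a log2 difference of 3.48 (SE 0.15, adjusted p = 7.01e-12). Enpep went the other way, with 7.85 ± 2.19 FPKM in artery and 59.8 ± 8.74 FPKM in kidney (-2.86, SE 0.14, adjusted p = 4.14e-11). Atp6ap2 also had less RNA in artery, with 21.3 ± 2.96 FPKM there and 86.7 ± 11.1 FPKM in kidney (-2.01, SE 0.11, adjusted p = 6.98e-11).

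The receptor genes split. Agtr1a averaged 17.9 ± 3.25 FPKM in artery and 15.3 ± 0.736 FPKM in kidney, with overlapping ranges. Its log2 difference of 0.20 (SE 0.10, 95% interval -0.01 to 0.41) was not called at an adjusted p of 0.0788. It was called with quantile normalization (0.33, adjusted p = 0.0111), with array weights (0.24, adjusted p = 0.0126) and without artery wild-type 4 (0.25, adjusted p = 0.0286), and was 0.13 without artery wild-type 1. Agtr1b was lower in artery, at 0.537 ± 0.144 FPKM there and 1.34 ± 0.696 FPKM in kidney (-0.77, SE 0.20, adjusted p = 0.00267). Without kidney wild-type 3 the tissue difference was 3.56 for Ace, -2.93 for Enpep, -1.97 for Atp6ap2, 0.20 for Agtr1a, -0.91 for Agtr1b and 1.66 for Agtr2, with the same calls.

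Agtr2 was detected in every artery, at 1.16 ± 0.497 FPKM (SD, n = 8), and listed at 0 in 5 of 7 kidneys. Its log2 difference was 1.66 (SE 0.18, adjusted p = 3.85e-07), a value that depends on the pseudocount, being 3.49 with 0.1 and 1.07 with 1. Agtr2 passed the filter only through artery (kidney mean 0.00323 FPKM), so its call adds nothing to the values themselves. Mas1 averaged 0.456 ± 0.119 FPKM in artery and 0.116 ± 0.0871 FPKM in kidney. The lowest artery (0.307 FPKM) lay above the highest kidney (0.272 FPKM), and with no filter the log2 difference was 0.64 (SE 0.11, adjusted p = 0.000112).

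**Figure D4:**
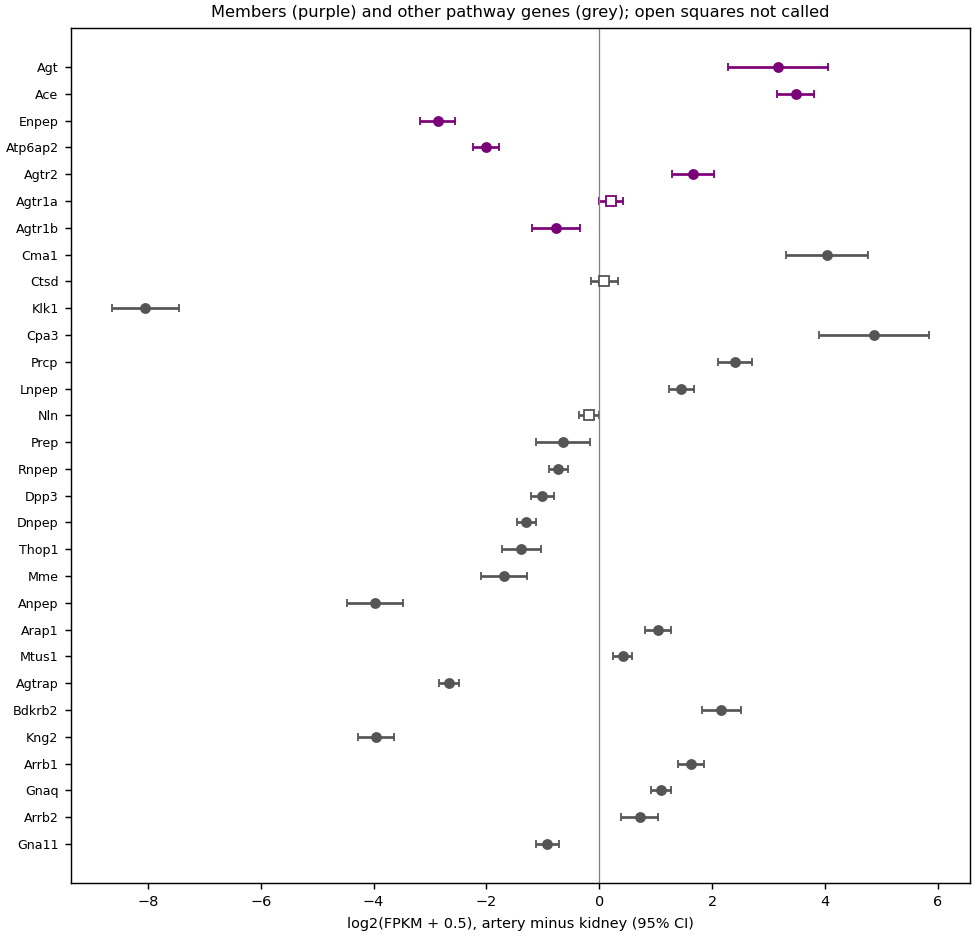
Log2 difference of FPKM + 0.5, artery minus kidney, with the limma 95% interval (x axis) for the 7 members tested (purple) and 23 other pathway genes tested (grey) on the y axis; open squares were not called. Agt (3.16) and Ace (3.48) lie far to the right and Enpep (-2.86) and Atp6ap2 (-2.01) to the left, with Agtr1a near 0.

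Ordered by mean FPKM, the arteries had Agt first, then Atp6ap2, Ace, Agtr1a, Enpep, Agtr2, Agtr1b and Mas1. Agt was above Atp6ap2 in 8 of 8 arteries, while Ace was above Agtr1a in 4 of 8, so that pair did not differ beyond its spread. The kidneys had Atp6ap2 first, then Enpep, Agtr1a, Agt, Agtr1b, Ace, Mas1 and Agtr2. Agtr1a was above Agt in 6 of 7 kidneys, and Agtr1b was above Ace in 3 of 7, so Agtr1b and Ace were not ordered beyond their spread. Agt varied within kidney by a ratio of 24.5 between its highest and lowest library, or 5.67 without wild-type 3, against 2.58 within artery, whereas Agtr1a varied by 1.15 in kidney and 1.70 in artery.

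The share of Agtr1b in AT1 transcripts was picked out after its values were seen and is given without a test. It made up 3.01 ± 1.03% of summed AT1 FPKM in artery (1.84 to 4.72%, n = 8) and 7.86 ± 3.56% in kidney (4.62 to 14.0%, n = 7). The ranges met only at artery wild-type 2 (4.72%) and kidney wild-type 3 (4.62%). The difference was -4.85 percentage points, or -3.83 without deletion kidney 2, which had the highest share of 14.0%, and -5.39 without kidney wild-type 3. By genotype the share was 2.83% in deletion and 3.18% in wild-type arteries, and 7.57% in deletion and 8.24% in wild-type kidneys. Since the pair is nearly identical in coding sequence, some of this share may be reads that could have come from either gene.

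**Figure D5:**
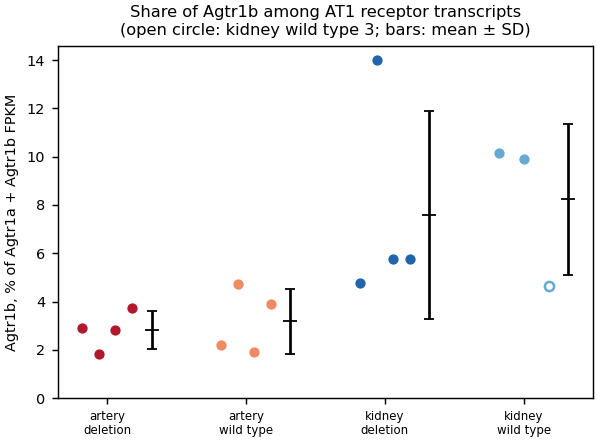
Agtr1b as a percentage of Agtr1a plus Agtr1b FPKM (y axis) in every library by group (x axis); bars give mean ± SD, and the open circle is kidney wild-type 3. Arteries lie between 1.84 and 4.72% and kidneys between 4.62 and 14.0%, with deletion kidney 2 highest.

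Of the 27 other pathway genes 23 were tested between tissues, of which 10 were called higher and 11 lower in artery. Over all genes tested 41.8% were called higher and 35.2% lower. The median log2 difference was -0.19, beside 0.11 over all genes. Among genes listed as forming angiotensins, Cma1, the mast cell chymase, was higher in artery (log2 difference 4.03). It stood at 11.2 ± 10.5 FPKM there and 0.0484 ± 0.0724 FPKM in kidney. Klk1, tissue kallikrein, was placed in the same list, and whether it forms angiotensins here was not tested. It stood at 0.229 ± 0.551 FPKM in artery and 169 ± 47.6 FPKM in kidney (-8.04). Ctsd was not called (0.09). The 4 mast cell markers, of which Cma1 is 1, summed to 6.43 to 54.9 FPKM in deletion and 18.6 to 128 FPKM in wild-type arteries, and to no more than 0.240 FPKM in kidney, where Tpsb2 was listed at 0.

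Of all genes tested, 41.8% were called higher and 35.2% lower in artery. Of the 11 enzymes listed that convert or break down angiotensins, 3 were called higher and 7 lower. The higher ones were the mast cell carboxypeptidase Cpa3 (4.86), the prolyl carboxypeptidase Prcp (2.40) and the cystinyl aminopeptidase Lnpep (1.45). Brush border peptidases led the lower ones: Anpep, aminopeptidase N, averaged 9.05 ± 4.77 FPKM in artery and 143 ± 36.5 FPKM in kidney (-3.98). Artery wild-type 1, the library with raised intestinal epithelium markers, had 20.5 FPKM of Anpep, against 5.36 to 9.06 FPKM in the other arteries. Without it the log2 difference was -4.17, and a link to those markers was not tested. Mme, neprilysin, averaged 34.4 ± 8.37 FPKM in artery and 114 ± 34.3 FPKM in kidney (-1.69). Thop1 (-1.38), Dnpep (-1.29), Dpp3 (-1.01), Rnpep (-0.72) and Prep (-0.65) completed the lower group. Prep lost its call without kidney wild-type 1 (-0.42, adjusted p = 0.0511), and Nln was not called (-0.19, adjusted p = 0.0528).

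Partners of the receptors split as well. Agtrap, a protein that promotes AT1 internalization, averaged 6.57 ± 0.437 FPKM in artery and 44.7 ± 5.82 FPKM in kidney (-2.66). Arap1 (1.04) and Mtus1, which encodes a partner of the AT2 receptor (0.42), were higher in artery. In the kinin arm Bdkrb2, the constitutive bradykinin receptor, was higher in artery (2.16) and the kininogen gene Kng2 lower (-3.96). Of the AT1 signal transducers, Arrb1 (1.63), Gnaq (1.09) and Arrb2 (0.71) were higher in artery and Gna11 lower (-0.92). Ctsg, Mrgprd, Kng1 and Bdkrb1 were under the filter. Cma1 and Cpa3 passed it only through artery, and Klk1 and Kng2 only through kidney.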

How the data were processed

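Total RNA was extracted with TRIzol and sequenced, per the labels' protocols. The authors deposited 1 table of FPKM values per gene and library, on rn7 coordinates per the file headers. Trim Galore 0.6.2, HISAT2 2.2.1 and DESeq2 1.46.0 were used, per the submitters' processing notes, which give them no order; which program computed FPKM is not given in the sources. Of 40694 rows, 6337 without an identifier were left out, as was 1 coverage column of no stated sample. Values down to 1e-06 do not step by whole reads, so depth is unknown and no counting interval or detection limit is given.

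Groups were taken from titles and genotype labels. Tests used log2(FPKM + 0.5) in limma 3.58.1 (R 4.3.3; lmFit, eBayes with trend and robust moderation) on genes averaging 0.5 FPKM or more over the libraries fitted: 1 fit per tissue for deletion against wild type, and 1 fit of 4 group means over 15 libraries for tissue and interaction. Log2 differences understate changes of low genes. P-values are two-sided and were adjusted by Benjamini-Hochberg over all genes of a fit, and a gene was called under 0.05. FPKM means were also compared by exact permutation (Python 3.11.15, scipy 1.17.1). The model was also run on simulated independent normal values, with no unusual library and no shift as small as that of Agt in artery. That run therefore does not bear on the comparisons given here. Windows at gene starts came from RefSeq (GRCr8) and were aligned with Biopython 1.88; figures used matplotlib 3.10.9.

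The members, the pathway list of 27 genes, the 14 marker lists and the tests were chosen with earlier results of these data known. Named were all members, pathway genes that were called, and in each deletion comparison the 3 pathway genes with the smallest p; the r of a member with other members or markers, the Agtr1b share and the values of deletion kidney 2 were picked out after their values were seen. Some other genes are not reported here. Alternative settings changed the pseudocount (0.1, 1), the filter (none, 1 FPKM), the scaling (median of ratios, quantiles), the moderation (not robust) or the weights (array weights), added a replicate block or a marker covariate, fitted both tissues at once, or left out each library.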

Additional observations from a re-analysis of the deposited data

Results flagged for a closer look

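In 3 of 24 groups of 4 libraries checked, 1 library lay far from the other 3 by Dixon's test of the gap over the range, a test that chance passes in about 1 of 20 groups. Agtr1b reached 2.59 FPKM in deletion kidney 2, above the 0.745 to 0.971 FPKM of the other deletion kidneys. Atp6ap2 was 65.8 FPKM in the same library, below the 86.2 to 90.1 FPKM of the others. Agtr2 was 0.302 FPKM in deletion artery 2, below the 1.14 to 1.26 FPKM of the other deletion arteries.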

How the results depend on the processing

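In artery 1 gene, no member, was called with a pseudocount of 0.1, and 0 to 1 with 1 library left out. In kidney 282 of 15444 genes, with 1 member (Ace) among them, were called with array weights. With 1 library left out 0 to 1 genes were called, and the cause was not tested. Between tissues 6 members were called, beside 12986 of 16856 genes. Under a filter at 1 FPKM, where fewer were tested, 4 members were called, beside 11611 of 14853 genes. With no filter 7 members were called, beside 16352 of 28438 genes, and Mas1, under the main filter, was among those 7.

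Some small differences changed sign; the cause was not tested. With median-of-ratios scaling Atp6ap2 was -0.015 (log2) and -0.402 (FPKM) in artery, Mas1 -0.00219 (FPKM) in artery, Agtr1a -0.035 (log2) and -0.357 (FPKM) in kidney, and the Enpep interaction 0.0012. With array weights the Enpep interaction was 0.063. Leaving out 1 library, the artery log2 difference was -0.12 to 0.13 for Agtr1a, -0.18 to 0.014 for Agtr1b and -0.071 to 0.10 for Atp6ap2; in kidney it was -0.021 to 0.076 for Agtr1a and -0.40 to 0.080 for Agtr1b. The interaction was -1.01 to 0.63 for Agt, -0.19 to 0.16 for Enpep, -0.14 to 0.11 for Agtr1a and -0.16 to 0.32 for Agtr1b. FPKM differences were -1.83 to 1.55 for Agtr1a, -0.128 to 0.0109 for Agtr1b, -0.0362 to 0.0745 for Mas1 and -1.06 to 1.43 for Atp6ap2 in artery, and -0.237 to 0.815 for Agtr1a and -0.503 to 0.159 for Agtr1b in kidney.

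The artery Agt difference stayed positive under every setting run, from 0.49 to 0.76, with adjusted p from 0.713 to 0.974. Its exact permutation p was 0.0571 with any 1 library left out, the smallest those sizes allow. Same-numbered wild-type and deletion libraries had deviations with r of -0.34 to 0.32 in artery and -0.01 to 0.27 in kidney. Libraries of unlike number were not compared, so whether the replicate numbers pair the libraries was not settled. With a replicate block 0 genes were called in either tissue, and Agt was 0.64 in artery and 1.05 in kidney. Unknown depth, 3 or 4 libraries a group and 1 kidney library against its title limit all of these comparisons.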

Other observations

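For each member tested in a tissue, genes among the 3 with the highest Pearson r of log2(FPKM + 0.5) over the libraries of that tissue are named as a description, with no test. In artery each r is the highest of 16470 genes over 8 libraries, and in kidney of 15444 genes over 7 libraries. In artery the genes nearest to Agt were Plk1 (r = 0.97), Peli3 (0.96) and Hs6st1 (0.96), and those nearest to Ace were Synpo, Slc12a2 and Eif5a2 (0.97 each). Enpep ran with Ide, Ttll3 and LOC120101649 (0.97 each), and Atp6ap2 with B3galt4 (0.98), Ifi27 (0.97) and Fbxl14 (0.97). Of the receptors, Agtr1a ran with Cds1, Suox and LOC120099895 (0.95 each), Agtr1b with Gimap8 (0.98), Zfp74 (0.98) and Fhl5 (0.97), and Agtr2 with LOC120102902 (0.96), Picalm (0.94) and LOC120103606 (0.93).

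In kidney the genes nearest to Agt were Il4r, Acox3 and Lypla1 (r = 0.99 each, and 0.98 each without wild-type 3). Ace ran with Phactr4 (0.98), Ncoa7 (0.96) and Tmem209 (0.95), and Enpep with Panx2 and Vma21 (0.99 each). Agtr1a ran with Tbc1d31 (0.96), Amigo1 (0.96) and Tmem249 (0.95), and Agtr1b with Ccdc74a (0.996), Snord10 (0.99) and LOC100912188 (0.98). Atp6ap2 ran with Tspan33 (0.996), Ndufb11 (0.996), a subunit of the mitochondrial respiratory chain, and Vcp (0.995), an ATPase that extracts proteins for degradation. All genes named had an r of 0.93 or more, and Mas1 (both tissues) and Agtr2 (kidney) were under the filter and not compared.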
